A study of Mus musculus with 12 samples.

Results

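The genes described here are 40 named genes of hepatic fatty acid oxidation, ketone body formation and the PPAR-alpha programme, taken from a deposited table of 27912 genes because their symbols stood on a fixed list. That list was chosen with earlier results of these data known. All 40 symbols were found, and all 40 passed the filter on low counts that left 17729 genes for testing. By the site or role of their products they comprise 2 regulators, 20 mitochondrial genes, 10 peroxisomal genes, 4 microsomal Cyp4a hydroxylases, 1 ketogenic gene (Bdh1) and 3 cytosolic or cell-surface PPAR-alpha targets. Liver RNA was compared between 3 male wild-type (WT) C57BL/6 mice, numbered 62, 63 and 64, and 3 male CCR1 knockout (CCR1-KO) mice, numbered 65, 66 and 67. CCR1 is a chemokine receptor carried mainly by myeloid cells. All mice began the CL diet, which is rich in fat and cholesterol and contains cholate, at 8 weeks of age and ate it for 12 weeks, so every value below comes from a liver under that diet. By its label a CCR1-KO mouse lacks Ccr1. The labels do not give the deleted exons, the strain of the knockout line or whether WT mice were littermates. The remaining 6 libraries of the series were not analysed here.

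Hepatocytes burn fatty acids in several compartments. The carnitine shuttle carries long-chain acyl groups into mitochondria, where repeated rounds of dehydrogenation, hydration, a further dehydrogenation and thiolysis release acetyl-CoA, and the electrons leave through the electron-transfer flavoprotein. Peroxisomes shorten very long and dicarboxylic acids, microsomal Cyp4a enzymes hydroxylate the far end of the chain, and in fasting much of the acetyl-CoA becomes ketone bodies. PPAR-alpha, a nuclear receptor that binds DNA with RXR, is the fatty-acid-activated inducer of many genes in each of these compartments in rodent liver.

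PPAR-alpha and RXR bind a direct repeat of AGGTCA with a spacer of 1 base. That repeat, AGGTCA, any base (N) and AGGTCA again, was searched on both strands of the RefSeq promoters of the mouse build GRCm38.p6, from 250 bases before to 50 after each start. Of the 40 genes, 33 had a promoter in the table; Acaa2, Decr1, Hsd17b4, Cyp4a10, Cyp4a14, Cyp4a31 and Vnn1 had none. With at most 2 mismatches outside the N, 5 of the 33 genes (15.15%) held a match, as did 4.4% of the 27025 genes with a promoter in the table. With at most 1 mismatch only Fabp1 held one (3.03% of the 33 genes; 0.64% of all genes), and with at most 3 mismatches the shares were 39.39% and 27.26%. The stretches around the matches that lie before the start are shown because they are the best copies of the receptor's letters in this set; capitals mark the 13 matched bases, written 5′ to 3′ on the gene's strand. The match in Fabp1, Etfa and Acot4 reads on the opposite strand and that in Echs1 on the gene's own strand. The fifth gene, Slc25a20, had its match after the start.
Fabp1, chr6:71199787-71199849, plus strand, 1 mismatch: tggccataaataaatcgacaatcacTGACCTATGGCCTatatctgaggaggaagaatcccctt
Etfa, chr9:55512283-55512345, minus strand, 2 mismatches: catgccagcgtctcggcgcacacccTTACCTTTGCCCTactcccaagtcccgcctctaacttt
Acot4, chr12:84038341-84038378, plus strand, 2 mismatches: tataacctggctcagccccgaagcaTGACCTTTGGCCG
Echs1, chr7:140116467-140116529, minus strand, 2 mismatches: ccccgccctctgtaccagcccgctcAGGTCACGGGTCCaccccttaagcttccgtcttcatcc
A match is a description of letters in this window. None of these 4 genes passed the test between genotypes: their log2 fold changes (CCR1-KO over WT) were 0.03 ± 0.18 (SE) for Fabp1, 0.27 ± 0.13 for Etfa, -0.48 ± 0.30 for Acot4 and -0.14 ± 0.15 for Echs1.

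Library totals ran from 74699391 to 79154085 assigned reads. Major urinary protein (Mup) transcripts, abundant secreted products of male hepatocytes, took 3.36% to 15.8% of reads in the knockout libraries and 0.927% to 1.05% in the WT libraries, so the scaling between libraries bears on every small difference below. CPM here are read counts scaled to the TMM-adjusted library total, and FPKM are the deposited length-normalised values without it. Ccr1 itself gave 11, 4 and 14 reads in knockout livers 65, 66 and 67 and 100, 23 and 123 reads in WT livers 62, 63 and 64; the groups did not overlap, with a log2 fold change of -2.72 ± 0.76 (SE; edgeR quasi-likelihood test, adjusted p = 0.0755). Knockout liver 65 stood apart from 66 and 67 on clock genes: Arntl, a core clock activator, read 16.8 CPM there, 2.97 and 1.84 CPM in livers 66 and 67 and 7.30 to 9.06 CPM in WT livers. Dbp, a clock output factor, read 12.1 CPM there, 74.0 and 85.2 CPM in livers 66 and 67 and 39.0 to 44.8 CPM in WT livers. Values without liver 65 are therefore given beside the calls. Without it 1 of the 40 genes was called higher (Eci2) and 2 lower (Ucp2 and Acot2). Of the 18360 genes tested in that fit, 1010 (5.50%) were called higher and 1409 (7.67%) lower. A difference in a bulk liver value cannot tell fewer cells of a type from less RNA per cell. Titles number the mice separately but nothing else says how they were housed or collected, so p-values measure the spread between these samples.

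For 38 of the 40 genes no difference between the genotypes passed the test. Of the 40 genes, 2 fell in CCR1-KO liver, Hadh and Ucp2 (5.00% of the 40; 3.61% of all tested genes were lower), and 0 rose (2.83% of all tested genes were higher), by edgeR's quasi-likelihood test at an adjusted p under 0.05. In either direction 6.44% of all tested genes passed. DESeq2 called 1 of the 40 higher and 4 lower, where 7.28% and 8.64% of the genes it tested were called. Limma on log2(FPKM + 0.5) called 0 higher and 4 lower, where the shares of the genes it tested were 1.78% and 8.70%. An unadjusted p under 0.05 was reached by 9 of the 40 genes (22.5%), against 24.4% of all tested genes. The median log2 fold change was 0.02 over the 40 genes and 0.0017 over all tested genes, and 19 of the 40 lay below 0. By CPM, 8 of the 40 genes (20%) were higher in all knockout livers than in any WT liver and 6 (15.0%) were lower, where the shares of all tested genes were 15.2% and 17.4%. By deposited FPKM the counts were 1 higher and 17 lower (2.5% and 42.5%), against 4.50% and 28.2% of all tested genes.

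**Figure D1:**
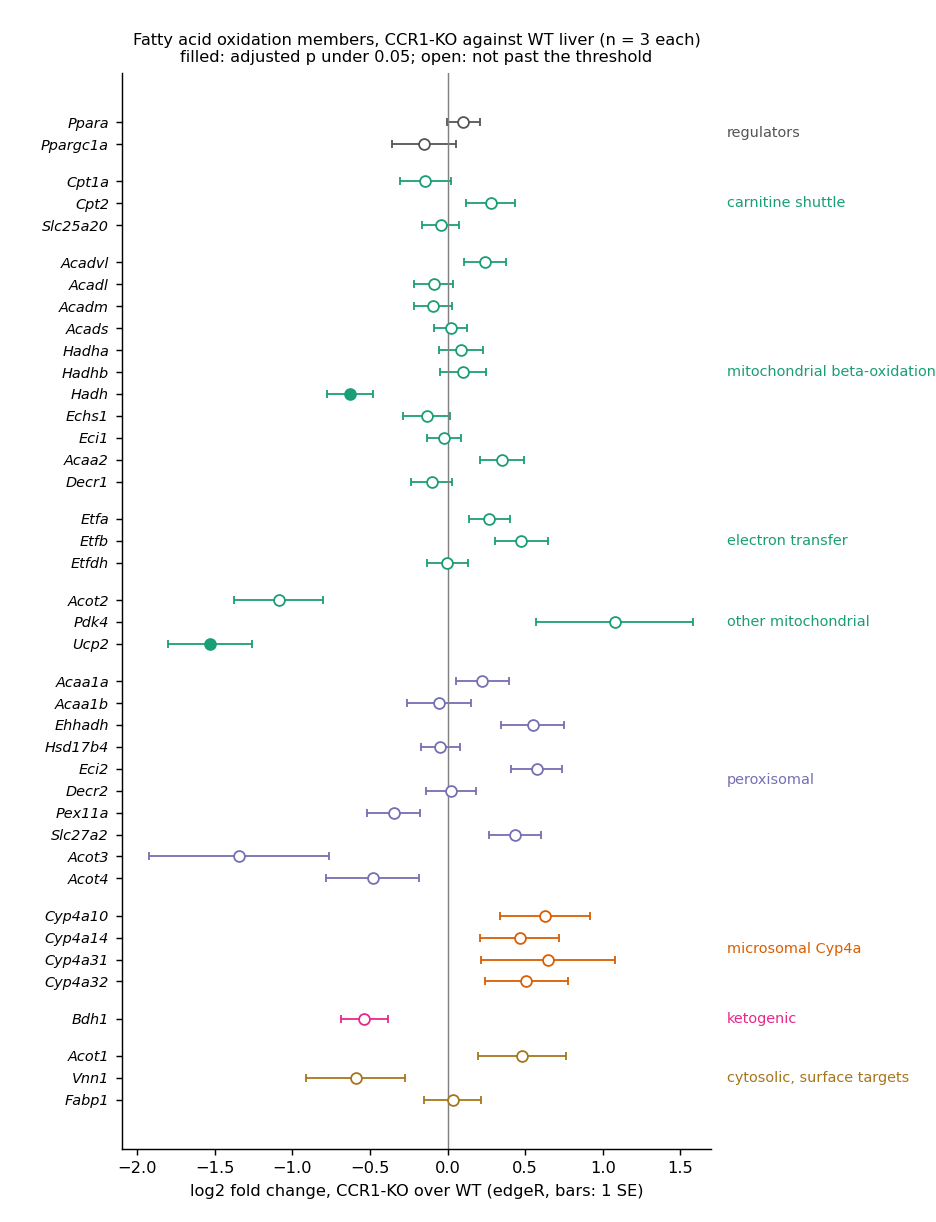
Log2 fold change of each of the 40 genes, CCR1-KO over WT (horizontal axis, edgeR estimate with bars of 1 SE, n = 3 livers a group), grouped by site or role; filled points passed the adjusted p threshold. Hadh and Ucp2 are the filled points, the 4 Cyp4a genes lie between 0.46 and 0.65, and most mitochondrial enzymes lie near 0.

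The 2 regulators did not pass the test. Ppara, the receptor itself, stood at 79, 79.6 and 87.4 CPM in knockout livers 65, 66 and 67 and at 72.3, 77.7 and 79 CPM in WT livers 62, 63 and 64. WT liver 64 reached knockout liver 65 and the rest lay apart; the log2 fold change was 0.10 ± 0.11 (adjusted p = 0.609). Ppargc1a, the coactivator that couples PPAR-alpha to mitochondrial gene expression, was the least abundant of the 40 genes per length. It read 6.53, 7.43 and 6.59 CPM in knockout livers and 8.94, 8.25 and 5.64 CPM in WT livers, overlapping throughout, with a log2 fold change of -0.15 ± 0.21 (adjusted p = 0.7).

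The carnitine shuttle did not pass the test in any of its 3 genes. Cpt1a, the malonyl-CoA-sensitive entry step, read 466, 629 and 653 CPM in knockout livers and 695, 603 and 632 CPM in WT livers. Only knockout liver 65 lay below all WT livers, and the log2 fold change was -0.14 ± 0.16 (adjusted p = 0.638). Cpt2, which rebuilds the acyl-CoA inside the mitochondrion, read 182, 191 and 253 CPM against 187, 165 and 165 CPM. Its groups overlapped through WT liver 62, and the log2 fold change was 0.28 ± 0.16 (adjusted p = 0.315). The carnitine-acylcarnitine carrier Slc25a20 read 174 ± 14.0 and 179 ± 8.79 CPM (SD, n = 3).

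Within the mitochondrial spiral, 1 of 11 enzymes passed the test. Hadh (ENSMUSG00000027984, chr3:131233419-131272101, minus strand, GRCm38) encodes the dehydrogenase that oxidises medium- and short-chain hydroxyacyl-CoA. It read 288, 247 and 324 CPM in knockout livers 65, 66 and 67 and 491, 417 and 419 CPM in WT livers 62, 63 and 64. Every knockout liver lay below every WT liver, by CPM and by FPKM. Hadh fell by 0.63 ± 0.15 (SE) on the log2 scale, with an adjusted p of 0.0485 in edgeR's quasi-likelihood test. The call sat at the threshold: it held in 7 of 9 other settings and in 0 of 6 fits that left out a library. Among the 7 were edgeR with no scaling factors and limma on FPKM with 0.1, 0.5 or 1 added. In these the median log2 fold change of all tested genes was itself -0.30 (no scaling factors) and -0.19 to -0.27 (limma). In edgeR the adjusted p of Hadh was 0.0554 with median-ratio scaling and 0.0612 with no low-count filter. The adjusted p was 0.0519, 0.138 and 0.0691 without knockout liver 65, 66 or 67 and 0.146, 0.133 and 0.137 without WT liver 62, 63 or 64, while the log2 fold change stayed between -0.53 and -0.73 in those fits.

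Hadha, the alpha subunit of the trifunctional protein, which carries hydratase and long-chain hydroxyacyl-CoA dehydrogenase activities, read 405, 451 and 536 CPM in knockout livers and 441, 422 and 445 CPM in WT livers. Its groups overlapped, and the log2 fold change was 0.09 ± 0.14 (adjusted p = 0.748). The ratio of Hadh to Hadha FPKM within a library, which needs no scaling between libraries, was 1.25, 0.960 and 1.06 in knockout livers and 1.96, 1.73 and 1.65 in WT livers. The ranges did not overlap. This ratio and the other within-library ratios were chosen after the values were seen and carry no test.

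Acaa2, the mitochondrial thiolase of the last step, was the most abundant of the 20 mitochondrial genes per length. It read 918, 1082 and 949 CPM in knockout livers and 691, 817 and 805 CPM in WT livers. All knockout livers were higher, but the log2 fold change of 0.35 ± 0.14 did not pass (adjusted p = 0.177). Acadvl, the very-long-chain acyl-CoA dehydrogenase, read 512, 548 and 513 CPM against 383, 472 and 475 CPM. Its groups also did not overlap in CPM, and its log2 fold change of 0.24 ± 0.14 did not pass (adjusted p = 0.318). By deposited FPKM the groups of Acaa2 and of Acadvl overlapped.

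Another 10 mitochondrial genes had log2 fold changes between -0.14 and 0.10 with SE of 0.108 to 0.15, and adjusted p of 0.627 to 0.993. They were Slc25a20, the long-, medium- and short-chain dehydrogenases Acadl, Acadm and Acads, both trifunctional subunits Hadha and Hadhb, the hydratase Echs1, the isomerase Eci1, the reductase Decr1 and the ubiquinone oxidoreductase Etfdh. Acadm, the medium-chain dehydrogenase, read 562 ± 40.2 CPM in CCR1-KO and 599 ± 10.7 CPM in WT (SD, n = 3), with a log2 fold change of -0.09 ± 0.12. Etfdh, which passes electrons to ubiquinone, read 344 ± 42.8 and 344 ± 2.58 CPM. Hadhb shares 43.7% of its 150-base windows with the gene model Gm13910, so its reads may be split between them.

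The electron-transfer flavoprotein genes were higher in all knockout livers by CPM without passing the test. Etfa, the alpha subunit, read 309, 316 and 286 CPM in knockout livers and 217, 272 and 267 CPM in WT livers, and its log2 fold change was 0.27 ± 0.13 (adjusted p = 0.259). Etfb, the beta subunit, read 271, 319 and 253 CPM against 164, 238 and 204 CPM, and its log2 fold change was 0.48 ± 0.17 (adjusted p = 0.139). For each subunit the groups did not overlap in CPM but overlapped in FPKM. Etfb shares 62.9% of its windows with the overlapping model Gm45233, which makes its level uncertain.

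Ucp2 and Acot2 were lower in every knockout liver, and Pdk4 was variable. Ucp2 (ENSMUSG00000033685, chr7:100493337-100502020, plus strand) encodes a carrier of the mitochondrial inner membrane that is also expressed in macrophages. It read 31.3, 19.5 and 22.8 CPM in knockout livers 65, 66 and 67 and 98.4, 51.2 and 63 CPM in WT livers 62, 63 and 64. The highest knockout liver was below the lowest WT liver. Ucp2 fell by 1.53 ± 0.27 on the log2 scale (edgeR's quasi-likelihood test, adjusted p = 0.0226), the largest absolute change among the 40 genes. The call held in 9 of 9 other settings and in 1 of 6 fits that left out a library: the adjusted p was 0.0116 without knockout liver 65, 0.0729 without 66 and 0.0732 without 67, and 0.0619, 0.0571 and 0.0788 without WT liver 62, 63 or 64.

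Of 16 macrophage and Kupffer cell markers, 1 fell (Trem2) and 0 rose by edgeR, 4 had an unadjusted p under 0.05, and DESeq2 and limma called 4 and 3 lower and 0 higher. Their summed FPKM was 268, 95.1 and 92.7 in knockout livers 65, 66 and 67 and 235, 270 and 222 in WT livers 62, 63 and 64. Knockout liver 65 lay within the WT range of that sum, and livers 66 and 67 below it. Ccr2, among the markers with an unadjusted p under 0.05 by edgeR, lies near the targeted gene on chromosome 9. Its position is chr9:124101950-124113557, and that of Ccr1 is chr9:123962124-123968692. The part of that position in the Ccr2 value was not tested. None of the 16 markers was listed at 0 in any library. The part of these cells in the Ucp2 result was not tested. Markers of hepatic stellate cells moved in the same direction: 6 of 10 fell, with summed FPKM of 22.4 to 29.8 in knockout livers and 52.9 to 125 in WT livers. Of 7 bile duct markers 1 fell and 5 were lower in all knockout livers by CPM, with summed FPKM of 19.4 to 27.4 in knockout livers and 71.6 to 121 in WT livers. Of 2 tested adipocyte markers 1 fell, Cidec, a lipid droplet protein also made by fatty liver, and the summed FPKM of the list was 2.36 to 21.2 against 53.1 to 58.4. Of 10 hepatocyte markers 4 rose (Cps1, Ass1, Tat and Pck1) and 0 fell. The summed FPKM of the 10 was 31229 to 36251 in knockout livers and 37438 to 42552 in WT livers. Alb made up the largest part of that sum, at 17307 to 20950 against 25177 to 28191. Its log2 fold change after TMM scaling was -0.16 ± 0.18 (edgeR's quasi-likelihood test, adjusted p = 0.629). These marker counts are to be read against the shares of all tested genes. By edgeR 3.61% were lower and 2.83% higher, 24.4% had an unadjusted p under 0.05, and 17.4% were lower in all knockout livers by CPM. DESeq2 and limma called 8.64% and 8.70% of the genes they tested lower. The sums are of deposited FPKM, by which 28.2% of all tested genes were lower in all knockout livers. The part of cell make-up in the other values given here was not tested either.

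Acot2, a thioesterase that releases free fatty acid from acyl-CoA in the mitochondrial matrix, read 20.5, 8.48 and 17.2 CPM in knockout livers and 30.3, 34.1 and 33.8 CPM in WT livers. The WT livers lay close together and all knockout livers were below them, liver 66 furthest. The log2 fold change of -1.09 ± 0.29 missed the threshold (adjusted p = 0.0651). It passed in 2 of 6 fits without a library and in 5 of 9 other settings. These 5 were edgeR with no scaling factors, DESeq2, and limma on FPKM with 0.1, 0.5 or 1 added. With edgeR's other scalings and filters the adjusted p was 0.0571 to 0.0912. Pdk4, the kinase that turns off pyruvate dehydrogenase when fat is burned, read 365, 91.8 and 179 CPM in knockout livers and 53.9, 134 and 114 CPM in WT livers. Its groups overlapped: knockout liver 66 lay below WT livers 63 and 64. The log2 fold change was 1.078 ± 0.50 (adjusted p = 0.235), and 0.43 without knockout liver 65.

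In the peroxisome, 0 of 10 genes passed edgeR's quasi-likelihood test, and 3 had an unadjusted p under 0.05 (30%, against 24.4% of all tested genes). DESeq2 called 1 of these 10 genes higher (Eci2) and limma called 0. Their median log2 fold change was -0.01, the same as over the 20 mitochondrial genes. The peroxisomal genes spread widely around it. Ehhadh, the bifunctional enzyme of the classical PPAR-alpha-inducible route, read 670, 569 and 929 CPM in knockout livers 65, 66 and 67 and 459, 561 and 461 CPM in WT livers 62, 63 and 64. All knockout livers were higher, liver 66 by a small margin, and the log2 fold change was 0.55 ± 0.20 (adjusted p = 0.147). Hsd17b4, the bifunctional enzyme of the other peroxisomal route, had a log2 fold change of -0.05 ± 0.13 (adjusted p = 0.86). The ratio of Ehhadh to Hsd17b4 FPKM was 1.30, 1.30 and 1.899 in knockout livers and 0.971, 1.12 and 0.896 in WT livers, without overlap. Ehhadh as a percentage of the mitochondrial sum did overlap, at 10.4%, 8.48% and 13.9% against 8.35%, 9.08% and 7.67%.

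Eci2, an enoyl-CoA isomerase found in peroxisomes and mitochondria, read 297, 401 and 421 CPM in knockout livers and 271, 249 and 231 CPM in WT livers. It was the only member of the 40 with all knockout livers higher by FPKM as well as by CPM. The log2 fold change of 0.57 ± 0.16 missed the threshold (adjusted p = 0.0788), and passed it with DESeq2 and in the fit without knockout liver 65. Within a library, Eci2 relative to Eci1, its mitochondrial counterpart, was 0.672, 0.926 and 0.945 in knockout livers and 0.594, 0.535 and 0.553 in WT livers. These ranges were apart, with knockout liver 65 nearest to the WT livers. Relative to the mitochondrial sum the groups of Eci2 overlapped, at 2.48%, 3.21% and 3.39% against 2.65%, 2.17% and 2.07%. The model Gm16984 lies on the opposite strand at the Eci2 locus and rose by 1.96 ± 0.31 on the log2 scale (adjusted p = 0.0166). It read 3.83, 4.14 and 5.35 CPM in knockout livers and 1.35, 1.34 and 0.739 CPM in WT livers. No source used here says whether reads were counted by strand; if they were not, the reads of Gm16984 and Eci2 cannot be told apart.

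Slc27a2, the very-long-chain acyl-CoA synthetase and fatty acid transporter, read 1702, 2244 and 2210 CPM in knockout livers and 1654, 1556 and 1347 CPM in WT livers. The groups stood just apart in CPM and overlapped in FPKM, and the log2 fold change was 0.43 ± 0.17 (adjusted p = 0.164). Acaa1a, a peroxisomal thiolase, read 375, 366 and 365 CPM against 240, 361 and 346 CPM. The margin between the groups was small, and the log2 fold change was 0.22 ± 0.17 (adjusted p = 0.464). Its near-copy Acaa1b, the most abundant of the 10 peroxisomal genes per length, read 2097, 1274 and 1632 CPM in knockout livers and 1492, 1919 and 1786 CPM in WT livers. Knockout livers were thus the highest and the lowest of the 6, with a log2 fold change of -0.06 ± 0.21 (adjusted p = 0.901).

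The longest open reading frames of Acaa1a and Acaa1b agree at 96.55% of nucleotides, and about 12.7% and 13.3% of their 150-base windows are shared, so reads can be split between them. Their summed level was 2036 ± 417 CPM in CCR1-KO and 2048 ± 284 CPM in WT (SD, n = 3). They lie 4.61 and 4.81 Mb from Ccr1 on chromosome 9, where strain sequence around a targeted gene can differ. The table also holds 2 gene models named Nnt on chromosome 13, away from Ccr1. Nnt is a mitochondrial transhydrogenase that differs between C57BL/6 substrains. One model had 0 reads in each knockout liver and 1627, 2640 and 2314 reads in WT livers, and the other read 137, 132 and 153 CPM in knockout livers and 46.4, 33.6 and 37.9 CPM in WT livers. A difference in genetic background, on these chromosomes or elsewhere, and the genotype cannot be told apart in this design. Pex11a, a factor of peroxisome division, had a log2 fold change of -0.35 ± 0.17 (adjusted p = 0.255), and the reductase Decr2 of 0.02 ± 0.16 (adjusted p = 0.952).

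The acyl-CoA thioesterases Acot1 to Acot4 lie side by side on chromosome 12 and encode cytosolic (Acot1), mitochondrial (Acot2) and peroxisomal (Acot3, Acot4) enzymes. Acot3 read 40.9, 6.87 and 32.5 CPM in knockout livers and 98.6, 60.5 and 44.4 CPM in WT livers. All knockout livers were lower, liver 66 far below the rest, and the log2 fold change of -1.34 ± 0.58 did not pass (adjusted p = 0.205). Acot4 read 153, 64 and 136 CPM against 187, 168 and 139 CPM, with overlapping groups and a log2 fold change of -0.48 ± 0.30 (adjusted p = 0.365). Acot1 had the opposite sign: it read 127, 63.8 and 121 CPM in knockout livers and 74.0, 92.6 and 57.1 CPM in WT livers. Its groups overlapped because knockout liver 66 was low, and the log2 fold change was 0.48 ± 0.28 (adjusted p = 0.335).

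Knockout liver 66 was the lowest knockout library for each of the 4 thioesterases. Relative to Acot2 in the same library, Acot1 FPKM was 3.48, 4.22 and 3.95 in knockout livers and 1.37, 1.52 and 0.946 in WT livers. On this ratio liver 66 stood with the other knockout livers, and the groups were well apart. Acot1 relative to Acot3 was 2.73, 8.17 and 3.27 in knockout livers and 0.658, 1.34 and 1.13 in WT livers, again without overlap. The open reading frames of Acot1 and Acot2 agree at 85.54% of nucleotides and those of Acot1 and Acot3 at 81.45%, and 10.2% to 12.4% of the windows of these 3 genes are shared with another gene. The summed CPM of the 4 genes was 342, 143 and 306 in knockout livers and 390, 355 and 274 in WT livers, which overlapped.

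**Figure D2:**
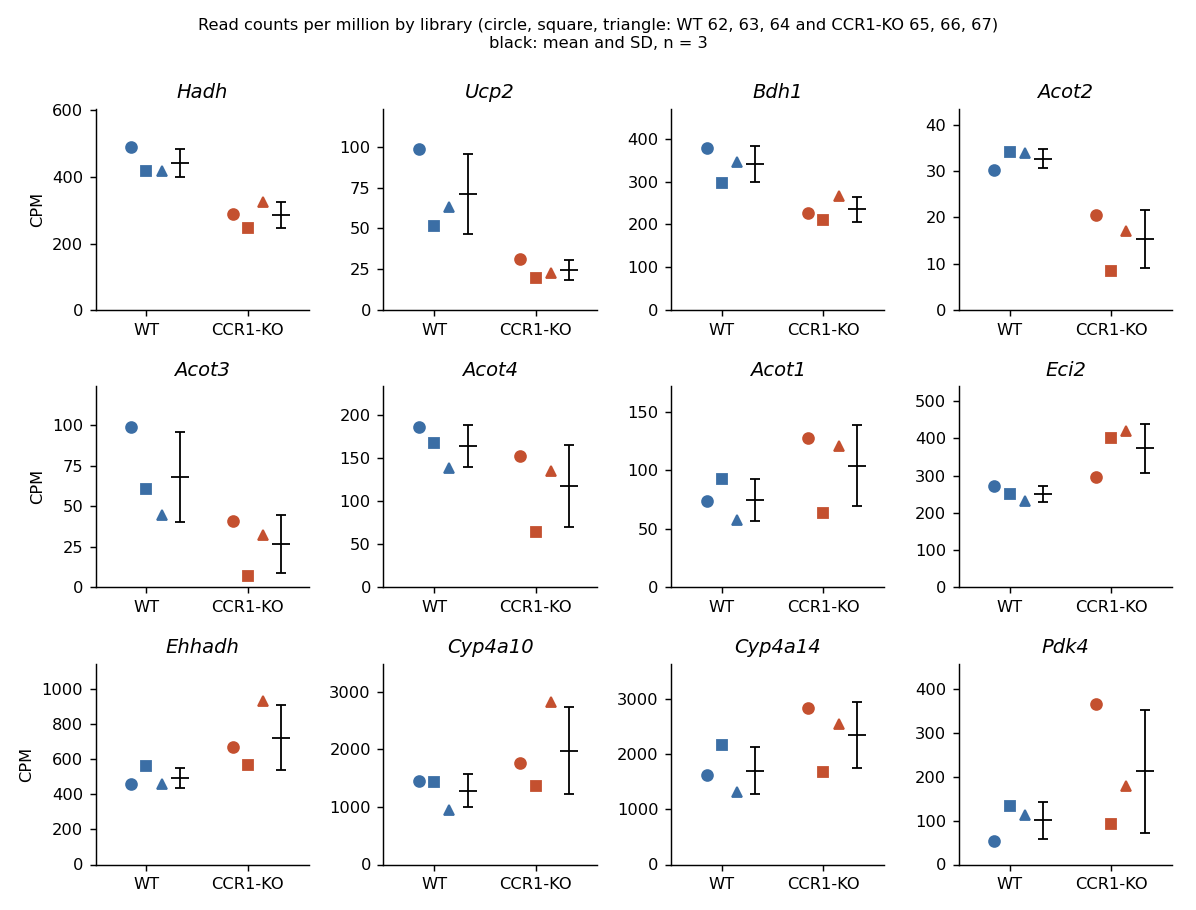
CPM after TMM scaling (vertical axis, from 0) of 12 of the genes in each of the 3 WT and 3 CCR1-KO livers, with the mean and SD in black. Hadh, Ucp2, Bdh1, Acot2 and Acot3 are lower in all knockout livers, Eci2 and Ehhadh higher in all, and the other panels overlap. Acot1 and Acot4 were added after their values were seen.

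The 4 microsomal Cyp4a genes, classical PPAR-alpha targets that hydroxylate the end of fatty acid chains, had log2 fold changes above 0 but did not pass the test. By edgeR's quasi-likelihood test 0 of 4 passed and 0 had an unadjusted p under 0.05, and DESeq2 and limma called 0. Cyp4a10 (chr4:115518264-115533649, plus strand) read 1760, 1365 and 2814 CPM in knockout livers 65, 66 and 67 and 1457, 1435 and 949 CPM in WT livers 62, 63 and 64. Cyp4a14 (chr4:115486200-115496142, minus strand) read 2831, 1672 and 2539 CPM against 1626, 2161 and 1316 CPM. In each, knockout liver 66 lay inside the WT range while livers 65 and 67 lay above it. The log2 fold changes were 0.63 ± 0.29 (adjusted p = 0.231) and 0.46 ± 0.25 (adjusted p = 0.302).

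The less abundant members of the cluster had similar fold changes. Cyp4a31 read 79.5, 73.9 and 211 CPM in knockout livers and 102, 80.7 and 50.2 CPM in WT livers, and Cyp4a32 read 73.5, 63.7 and 119 CPM against 75.2, 59.0 and 46.2 CPM. In each only knockout liver 67 lay above every WT liver. The log2 fold changes were 0.65 ± 0.43 (adjusted p = 0.397) and 0.51 ± 0.27 (adjusted p = 0.282). Without knockout liver 67 they were -0.02 for Cyp4a31, 0.19 for Cyp4a32, 0.28 for Cyp4a10 and 0.40 for Cyp4a14. The open reading frames of Cyp4a10, Cyp4a31 and Cyp4a32 agree at 96.01% to 97.19% of nucleotides, so 4.20% to 7.97% of their windows are shared with another gene, and their reads can be split between them. Cyp4a14 is identical to them at 74.82% to 75.1% and shares no window of 150 bases. The summed CPM of the family was 4744, 3174 and 5683 in knockout livers and 3260, 3735 and 2362 in WT livers; the ranges overlapped.

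Bdh1, the dehydrogenase that interconverts acetoacetate and beta-hydroxybutyrate, was the only ketogenic member. Bdh1 (ENSMUSG00000046598, chr16:31422280-31458901, plus strand) read 227, 211 and 267 CPM in knockout livers and 379, 297 and 346 CPM in WT livers. All knockout livers were lower, by CPM and by FPKM. The log2 fold change of -0.54 ± 0.15 missed the threshold (adjusted p = 0.0755). It passed in 5 of 9 other settings: edgeR with no scaling factors, DESeq2, and limma on FPKM with 0.1, 0.5 or 1 added. With no scaling factors and with limma at 0.5 the median log2 fold change of all tested genes was itself -0.30 and -0.23. With edgeR's other scalings and filters the adjusted p of Bdh1 was 0.0620 to 0.0965. In 0 of 6 fits without a library the adjusted p was under 0.05. Relative to Hadha FPKM in the same library, Bdh1 was 1.26, 1.05 and 1.12 in knockout livers and 1.93, 1.58 and 1.745 in WT livers, without overlap.

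Of 8 other genes of ketone body formation, use and transport, 0 passed edgeR's quasi-likelihood test. An unadjusted p under 0.05 was reached by 2 (25%, against 24.4% of all tested genes). DESeq2 called 2 lower, where 8.64% of the genes it tested were, and limma called 0. The edgeR log2 fold change lay below 0 for 7 of the 8 genes, against 49.9% of all tested genes. Its median over the 8 was -0.25, a description with no test.

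The cytosolic and cell-surface targets did not pass the test. Fabp1, the liver fatty acid binding protein whose promoter carries the closest match shown above, was the most abundant of the 40 genes per length. It read 2642, 2467 and 3461 CPM in knockout livers and 2867, 3066 and 2446 CPM in WT livers. The groups overlapped in CPM, with knockout liver 67 above every WT liver, and the log2 fold change was 0.03 ± 0.18 (adjusted p = 0.934). By deposited FPKM all knockout livers were lower, at 4608, 3560 and 4475 against 5022, 5643 and 4708, as were those of 28.2% of all tested genes. Vnn1, a membrane-anchored pantetheinase that recycles the vitamin part of coenzyme A, read 166, 65.1 and 164 CPM against 187, 194 and 216 CPM. All knockout livers were lower, liver 66 by far, and the log2 fold change of -0.59 ± 0.32 did not pass (adjusted p = 0.298). It was -0.27 without that liver.

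Set side by side, the compartments differed in the sign of their median log2 fold change: -0.01 for the 20 mitochondrial genes, -0.01 for the 10 peroxisomal genes, 0.57 for the 4 Cyp4a genes and -0.54 for Bdh1. These medians are descriptions with no test. By summed deposited FPKM, the mitochondrial genes gave 2087, 1795 and 1599 in knockout livers and 1787, 2111 and 2144 in WT livers. The peroxisomal genes gave 2155, 1498 and 1613 against 1794, 2118 and 2013, and the Cyp4a genes 1932, 1086 and 1767 against 1361, 1610 and 1071. Each of these sums overlapped between the groups, whereas Bdh1 did not, at 56.4, 43.2 and 49.0 against 94.5, 77.8 and 94.7. Sums weigh the most abundant genes most. Mean FPKM in CCR1-KO and WT were 534 and 518 for Acaa2 (mitochondrial) and 715 and 900 for Acaa1b (peroxisomal). They were 758 and 614 for Cyp4a10 and 754 and 663 for Cyp4a14.

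The ratios of the group means, CCR1-KO over WT, were 0.907 for mitochondrial, 0.889 for peroxisomal, 1.18 for Cyp4a and 0.557 for Bdh1 by FPKM as deposited. After median-ratio scaling of the libraries they were 1.09, 1.07, 1.43 and 0.671. Scaling thus moved the mitochondrial and peroxisomal sums across 1, and left Cyp4a above and Bdh1 below it. The mitochondrial sum was then 1978, 1967 and 2026 in knockout livers and 1718, 1896 and 1862 in WT livers, without overlap. Without any scaling between libraries, the peroxisomal sum relative to the mitochondrial sum was 1.03, 0.835 and 1.01 in knockout livers and 1.00, 1.00 and 0.939 in WT livers. The Cyp4a sum relative to it was 0.925, 0.605 and 1.11 against 0.762, 0.763 and 0.4997. Each of these 2 ratios overlapped, knockout liver 66 being the lowest of the 3 knockout livers in each.

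**Figure D3:**
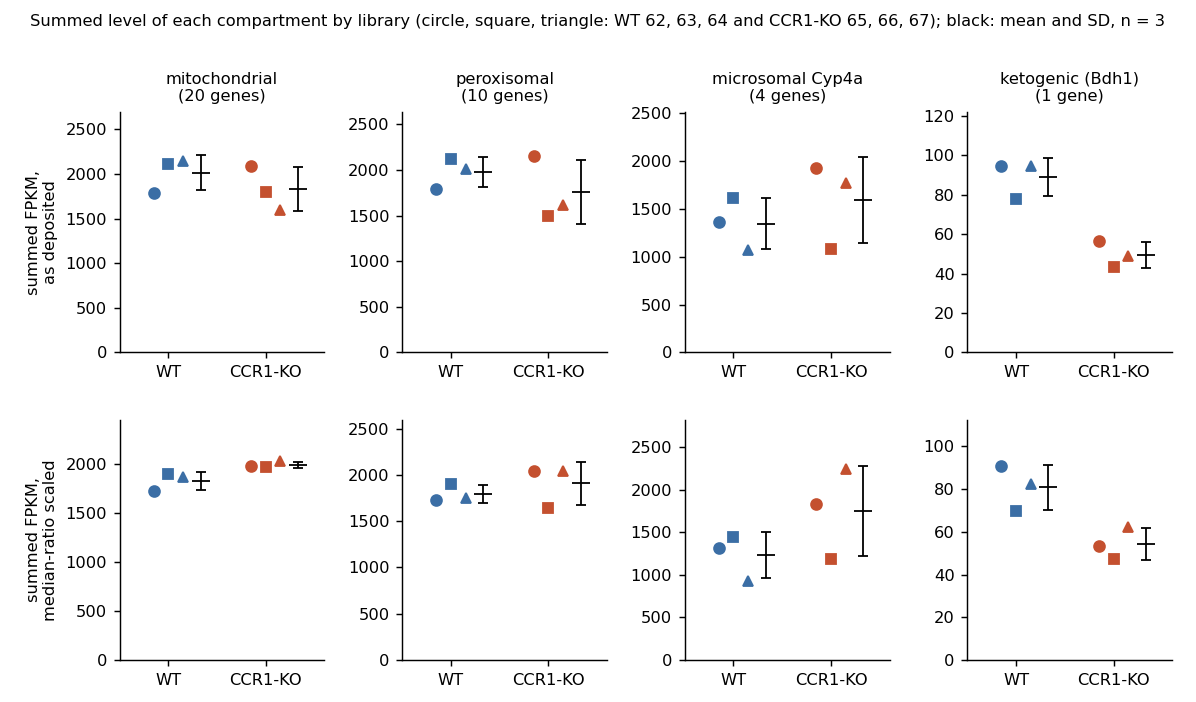
Summed FPKM per liver (vertical axes, from 0) of the mitochondrial, peroxisomal, Cyp4a and ketogenic genes, as deposited in the upper row and after median-ratio scaling in the lower row, with mean and SD in black (n = 3). Bdh1 is lower in all knockout livers in both rows, and the mitochondrial sum changes from overlapping groups to higher knockout livers with scaling.

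**Figure D4:**
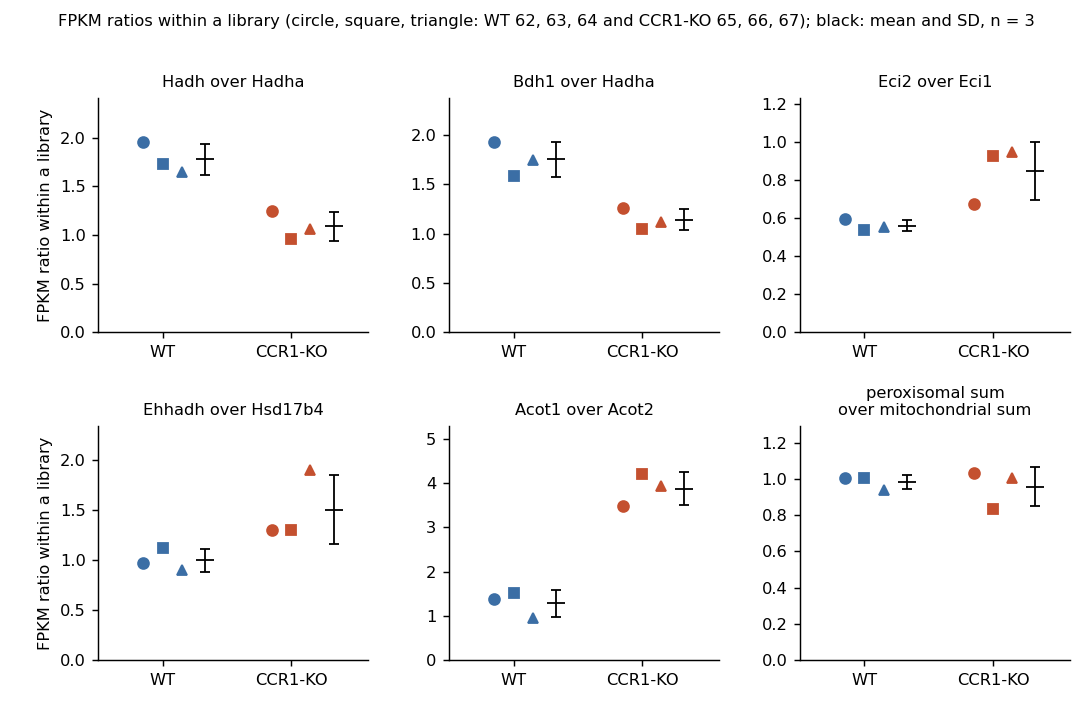
Ratios of FPKM within each liver (vertical axes, from 0) for 6 gene pairs or sums, 3 WT and 3 CCR1-KO livers, with mean and SD in black. Hadh and Bdh1 relative to Hadha are lower in all knockout livers, Eci2 to Eci1, Ehhadh to Hsd17b4 and Acot1 to Acot2 are higher, and the peroxisomal to mitochondrial ratio overlaps.

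The sign of 24 of the 40 genes was the same in the analysis and in all 15 alternative settings, 10 above 0 and 14 below. Those above were Acaa2, Etfb, Pdk4, Ehhadh, Eci2, Slc27a2, Cyp4a10, Cyp4a14, Cyp4a32 and Acot1. Those below were Hadh, Ucp2, Bdh1, Acot2, Acot3, Acot4, Vnn1, Pex11a, Cpt1a, Ppargc1a, Acadl, Acadm, Echs1 and Decr1. The other 16, among them Ppara, Cpt2, Acadvl, Etfa, Acaa1a, Hadha, Hadhb and Fabp1, changed sign in at least 1 setting. All settings draw on the same livers. In some the median log2 fold change of all tested genes was itself below 0, at -0.30 with no scaling factors and -0.23 with limma on log2(FPKM + 0.5). Genes slightly below 0 therefore kept their sign more easily than genes slightly above 0.

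The knockout livers were not uniform in this set. Liver 66 was the lowest knockout library by CPM for 23 of the 40 genes (57.5%), where it was the lowest for 32.2% of all tested genes, and liver 67 was the highest for 22 (55.0%), against 30.2%. By deposited FPKM, without that scaling, liver 66 was the lowest for 26 of the 40 (65%, against 31.2% of all tested genes), liver 65 the highest for 32 (80%, against 67%) and liver 67 the highest for 5 (12.5%, against 11.0%). These are descriptions, since the genes are not independent. The coefficient of variation among knockout livers had a median of 14.6% over the 40 genes and 36.2% over the Cyp4a genes, against 13.7% over the 9619 tested genes with at least 5 CPM. Among WT livers these medians were 11.5%, 24.7% and 10.03%.

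Of 107 further genes of the pathway from lists chosen by function, 106 were tested. Of these, 9 rose (8.49%, against 2.83% of all tested genes) and 7 fell (6.60%, against 3.61%). The lists were chosen with earlier results of these data known, so the difference from the shares of all tested genes is a description with no test. The counts of the separate lists below are to be read against the same shares of all tested genes. Among 15 receptor partners and co-regulators, 2 rose and 0 fell. Klf15, a fasting- and glucocorticoid-responsive factor that acts with PPAR-alpha, read 124, 161 and 175 CPM in knockout livers and 69.6, 72.3 and 59.2 CPM in WT livers, well apart, and rose by 1.19 ± 0.16 on the log2 scale (adjusted p = 0.0114). Lpin1, a phosphatidate phosphatase that also coactivates PPAR-alpha, read 187, 1000.04 and 362 CPM against 66.4, 47.1 and 33 CPM. It was highest in knockout liver 66, the liver with the lowest values for many of the 40 genes, and rose by 3.40 ± 0.61 (adjusted p = 0.0226). Both calls were lost without WT liver 62, 63 or 64, with adjusted p of 0.0504 to 0.06 for Klf15 and 0.074 to 0.107 for Lpin1. Rxra, the DNA-binding partner, had a log2 fold change of 0.35 ± 0.15 (adjusted p = 0.195).

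Among 20 tested further PPAR-alpha targets, 2 rose and 1 fell, and these did not share a direction. Angptl4, a secreted lipase inhibitor induced by fasting, read 272, 372 and 331 CPM in knockout livers and 148, 164 and 143 CPM in WT livers and rose by 1.10 ± 0.15 (adjusted p = 0.0117). Txnip, a regulator of glucose uptake, rose by 0.98 ± 0.17 (adjusted p = 0.0225). Cd36, the fatty acid translocase, read 90.5, 15.1 and 24.3 CPM against 236, 289 and 295 CPM and fell by 2.66 ± 0.61 (adjusted p = 0.0449). Of the 9 other settings, Txnip passed in 5, Cd36 in 8 and Angptl4 in all 9. Without 1 library, the adjusted p reached 0.0515 to 0.0647 for Angptl4 on leaving out WT liver 62, 63 or 64. For Txnip it reached 0.0548 to 0.109 and for Cd36 0.0859 to 0.14 on leaving out any library other than knockout liver 65.

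Other microsomal hydroxylases included 4 that rose of 9, and 0 that fell. Cyp4a12b, of the same gene family as the Cyp4a members, read 36.7, 71.1 and 191 CPM in knockout livers and 8.80, 10.8 and 11.7 CPM in WT livers. All knockout livers were several times higher, liver 67 most, and it rose by 3.26 ± 0.56 (adjusted p = 0.0197). Mup transcripts, like Cyp4a12 products of the male liver, were also most abundant in liver 67, at 15.8% of reads, then 12.2% in liver 66 and 3.36% in liver 65, and their part in this result was not tested. Cyp4a12a, of the same family, read 90.2, 92.0 and 296 CPM in knockout livers and 48.4, 78.1 and 93.9 CPM in WT livers. Its groups overlapped, with a log2 fold change of 1.12 ± 0.48 (adjusted p = 0.204). Whether reads were split between Cyp4a12b and Cyp4a12a was not tested. Cyp4f14, a hydroxylase of leukotrienes and fatty acids, rose by 1.07 ± 0.13 (adjusted p = 0.00964), Cyp4f13 by 0.74 ± 0.13 (adjusted p = 0.0215) and Cyp4f15 by 0.73 ± 0.17 (adjusted p = 0.0481). The call for Cyp4a12b was lost without WT liver 62, 63 or 64 (adjusted p of 0.0884 to 0.0946) and that for Cyp4f14 without WT liver 64 (0.051). Of the 9 other settings, Cyp4f15 passed in 3, Cyp4f13 in 5, and Cyp4a12b and Cyp4f14 in all 9. The calls for Cyp4f13 (0.0582 to 0.103) and Cyp4f15 (0.0729 to 0.179) were lost without any library other than knockout liver 65.

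In the peroxisome, 0 of 30 further genes rose and 2 fell. Abcd2, a transporter that imports very-long-chain acyl-CoA, was among those that fell. It read 12.0, 3.92 and 6.41 CPM in knockout livers and 44.0, 40.7 and 41.3 CPM in WT livers, far apart, and fell by 2.49 ± 0.36 (adjusted p = 0.0129). Its call was lost without WT liver 62, 63 or 64, with adjusted p of 0.0551 to 0.0605.

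Among 15 genes of acyl-CoA synthesis and carnitine handling, 0 rose and 2 fell. Acaca, a carboxylase that makes malonyl-CoA, read 28, 33.7 and 25.8 CPM in knockout livers and 67.7, 54.2 and 58.3 CPM in WT livers. It fell by 1.04 ± 0.14 (adjusted p = 0.0121). Acacb, also on this list, was lower in all knockout livers, at 34.6, 21.2 and 13.8 CPM against 61.6, 57.0 and 44.5 CPM. Its log2 fold change of -1.23 ± 0.31 missed the threshold (adjusted p = 0.0578). Acsl5, a synthetase of long-chain acyl-CoA, fell by 0.59 ± 0.12 (adjusted p = 0.0366). Among 17 further mitochondrial genes 1 rose and 2 fell: Acadsb, a dehydrogenase of branched short chains, rose by 0.65 ± 0.15 (adjusted p = 0.0494). Acad10 fell by 0.65 ± 0.14 (adjusted p = 0.035) and the desuccinylase Sirt5 by 0.59 ± 0.13 (adjusted p = 0.0402). Acaca lost its call without WT liver 63 or 64 (0.0503 and 0.0521) and Sirt5 without any library (0.0507 to 0.148). Acsl5 (0.0822 to 0.141), Acad10 (0.0755 to 0.132) and Acadsb (0.118 to 0.183) lost theirs without any library other than knockout liver 65. Of the 9 other settings, Acadsb passed in 3 and Sirt5 in 8, while Acaca, Acsl5 and Acad10 passed in all 9.

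Feeding state and hour of death are not given per mouse in the sources used here. Of 16 clock and feeding-time genes 8 had an unadjusted p under 0.05 (50%, against 24.4% of all tested genes). Only 1 of the 16 rose (6.25%, against 2.83%), Per1. It read 42.6, 55.8 and 48.3 CPM in knockout livers and 14.3, 12.1 and 11.3 CPM in WT livers (log2 fold change 1.96 ± 0.15, adjusted p = 0.00217). Other clock genes split the knockout livers as Arntl and Dbp did: Ciart read 2.95, 30.9 and 28 CPM in livers 65, 66 and 67 and 2.52 to 5.34 CPM in WT livers, and Npas2 read 2.61, 0.184 and 0.167 CPM against 1.26 to 1.53 CPM. Pck1, the gluconeogenic carboxykinase that rises in fasting, was apart as well, at 3749, 4397 and 4788 CPM against 1076, 1135 and 1075 CPM (log2 fold change 1.98 ± 0.16, adjusted p = 0.00241). The part of feeding state or time of day in the values of the oxidation genes was not tested.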

How the data were processed

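Polyadenylated RNA from mouse liver was made into dUTP-marked paired libraries of 150 bases, per the labels' protocols. The authors deposited a gene table with raw read counts and FPKM (length- and depth-normalised values) per liver. The submitters' processing notes list, without roles, HISAT2 2.2.1, StringTie 2.1.6, cutadapt 1.9, edgeR and DESeq2, and list a human build, whereas the gene IDs are mouse. Of the 27912 IDs, 27839 are in GENCODE M21 (GRCm38), and 38 of the 40 genes have its coordinates. Use of strand and handling of multi-mapped reads are not given in the sources used here.

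Deposited counts were tested with edgeR 4.0.16 (quasi-likelihood test, TMM scaling, filterByExpr with a minimum count of 10, R 4.3.3) over the whole table, CCR1-KO against WT, 3 libraries each, with Benjamini-Hochberg adjustment over the 17729 tested genes and a threshold of 0.05. The biological coefficient of variation was 0.302. All tests were two-sided. Depth was 74699391 to 79154085 reads per library; 3 animals a group also limit the precision. Errors are SE of log2 fold changes or SD of levels. Alternatives were other scalings, DESeq2 1.42.0, limma 3.58.1 on log2(FPKM + 0.5) for genes of at least 0.5 FPKM in 3 libraries (also with pseudocounts of 0.1 and 1), other filters, and leaving out each library.

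The 40 genes and all gene lists were chosen with earlier results of these data known. Values in each library are given for genes that passed, genes whose groups do not overlap in CPM, regulators, Cyp4a genes, Bdh1, and in each group of genes the most abundant and the most changed; of other pathway genes, at most the 4 of smallest p among those that passed per list. A few genes outside this rule, such as Hadha, Acot1, Acot4, Gm16984, Cyp4a12a and Acacb, were added after their values were seen. Some listed pathway genes are not reported here by name. Family identity was computed on the longest open reading frame of GENCODE M21 transcripts in place of protein sequences, by nucleotide, and shared windows are 150-base stretches found in transcripts of another gene. Promoters are from RefSeq (GRCm38.p6).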

Additional observations from a re-analysis of the deposited data

How the results depend on the processing

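Each result was recomputed under 15 alternatives. Of 600 recomputed fold changes of the 40 genes, 573 brought no change of call, 14 passed the threshold newly and 13 lost it. Members called lower (2 in the analysis) numbered 1 with median-ratio scaling and with no low-count filter, 4 with no scaling factors, with DESeq2 and with limma at each of the 3 pseudocounts, and 0 to 2 when a library was left out. Members called higher (0) numbered 1 with DESeq2 and 0 to 1 with a library left out. These counts are to be read against the shares of all tested genes, whose number differs between settings. Lower were 3.61% in the analysis, 3.45% with median-ratio scaling, 1.51% with no low-count filter and 4.83% with no scaling factors. DESeq2 called 8.64% lower, limma 7.75% to 8.99%, and the fits without a library 0.361% to 7.67%. Higher were 2.83% in the analysis, 7.28% with DESeq2 and 0.197% to 5.50% without a library. Over all genes, 501 were higher and 640 lower. With DESeq2 there were 1199 higher and 1424 lower, with no filter 314 and 421, and with no scaling factors 219 and 857. Limma gave 223 higher and 1088 lower at a pseudocount of 0.5, 217 and 969 at 0.1, and 225 and 1124 at 1. Leaving out a library gave 36 to 1010 higher and 66 to 1409 lower, the most without CCR1-KO replicate 65 and the fewest without WT replicate 63. With fewer libraries the test has fewer degrees of freedom; other causes were not tested. The median log2 fold change of all tested genes shifted to -0.30 with no scaling factors and to -0.23 with limma at 0.5, and that of the 40 genes to -0.29 in each. Values in these settings include that shift. For Hadh, for example, the log2 fold change was -0.93 with no scaling factors and -0.94 with limma at 0.5.

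The ratio of mean summed FPKM, CCR1-KO over WT, moved with median-ratio scaling from 0.907 to 1.09 for the mitochondrial genes and from 0.557 to 0.671 for Bdh1. With a library left out the mitochondrial ratio was 0.843 to 0.964, the peroxisomal 0.788 to 0.954, the Cyp4a 1.06 to 1.37 and that of Bdh1 0.519 to 0.593. The share of the 33 genes whose promoter held a match was 15.15% at up to 2 mismatches, 3.03% at 1 and 39.39% at 3. No paired analysis was possible because the groups share no replicate number. With 3 livers a group, a permutation test cannot go below an exact p of 0.10.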
